A study of Sus scrofa with 9 samples.

Results

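The hypoxia-inducible factor (HIF) subunits, the enzymes that sense oxygen for them, and the hormone gene EPO were followed in liver RNA of Wujin pigs fed diets of different iron content. The 9 genes, listed by name, were HIF1A, EPAS1, ARNT, EGLN1, EGLN2, EGLN3, VHL, HIF1AN and EPO, out of 25918 genes in the expression table. All 9 were found, and 8 of them passed the filter on low values, a mean of at least 0.5 FPKM (fragments counted per unit of transcript length and of library size) over all libraries. EPO did not pass it. The samples were 9 livers, 3 per diet. The control feed held 100 mg/kg of iron added as iron glycinate to a basic diet that had iron of its own, the low-iron feed 0 and the high-iron feed 200 mg/kg. All pigs were Wujin pigs, a plateau breed of Southwest China, 35 days old at the start, each raised on its own, and the formal feeding of 30 days followed a prefeeding of 5 days. The 3 pigs sequenced per group were drawn at random from the group, and their sex is not given in the labels. Each library was one pig and is named by its group and animal number.

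HIF is a pair of proteins, an oxygen-regulated alpha subunit (HIF-1α from HIF1A or HIF-2α from EPAS1) and the stable partner ARNT. In oxygenated cells the prolyl hydroxylases PHD2, PHD1 and PHD3 (EGLN1, EGLN2 and EGLN3), which need iron, oxygen and 2-oxoglutarate, mark the alpha subunit for binding by VHL and for degradation, and the asparaginyl hydroxylase FIH (HIF1AN) blocks its coactivator site. The alpha subunits are thus set largely at the protein level, which RNA does not show, while translation of EPAS1 mRNA is held back by iron regulatory proteins, and EPO, made by the fetal liver and later mainly by the kidney, is a classic HIF-2 target that drives red cell production.

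Stretches near EPAS1 and EPO are shown for letters like those of elements through which iron and oxygen are known to act. The positions are on Sscrofa11.1, and the bases were read from the NCBI RefSeq genome. The first stretch holds an iron-responsive-element loop pattern upstream of the EPAS1 coding start, with the loop letters CAGTG in capitals. The second lies just past the annotated end of EPO, where a hypoxia response motif ACGTG and the nuclear receptor motif TGACC, both in capitals, stand close together.

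EPAS1, chr3:94253978-94254007, minus strand: tacaatcctcggCAGTGtcctgagactgta

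EPO, chr3:8623047-8623091, plus strand: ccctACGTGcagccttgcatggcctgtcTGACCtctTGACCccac

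The EPAS1 stretch was the only match to CNNNNNCAGTG on the coding strand in the 1000 bases before the coding start, and its loop begins 439 bases before that start. It lies 316 bases upstream of the transcript start in the annotation. The pattern is short, and 32.7% of 20614 windows of the same length before other coding starts hold it. In the EPO stretch, ACGTG begins 115 bases after the annotated end of the gene, and 2 copies of TGACC follow it 3 bases apart. Of 20645 windows of 500 bases after gene ends, 2 hold ACGTG together with such a pair, or 0.00969%. The window of EPO itself is among these 2. The spacing searched for was read from the EPO stretch, so the share does not measure how unusual that stretch is. In the 300 bases around the annotated starts (250 before and 50 after, both strands), ACGTG was found in the promoters of HIF1A and EGLN1, and GCGTG in those of ARNT, EGLN1, EGLN2, VHL and EPO. Neither set of letters was found in the windows of EPAS1, EGLN3 and HIF1AN. Across 20650 promoters, 48.3% hold either motif, so a match is common. These matches are descriptions of letters and not measured sites.

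Levels are given as FPKM, which is per length of transcript and so can be set side by side between genes. The order of the means over the 9 libraries was EPAS1 at 31.3 FPKM, HIF1A at 11.3, ARNT at 9.14, EGLN1 at 8.42, HIF1AN at 6.37, EGLN2 at 5.24, EGLN3 at 3.52 and VHL at 3.51, with EPO far below, above 0 in 2 of 9 libraries. EPAS1, the HIF-2α gene, was the highest in this order and lay above HIF1A in 9 of 9 libraries, with 1421 genes of the table above it. HIF1A lay above ARNT in 8 libraries, and ARNT above EGLN1 in 7, while EGLN1 was above HIF1AN in 9. The neighbours EGLN3 and VHL did not differ beyond their spread, since EGLN3 was above VHL in 5 of 9 libraries. EGLN1 was the steadiest of the genes, with a coefficient of variation over the 9 libraries of 9.49%, followed by HIF1AN at 13.0% and HIF1A at 18.6%. EGLN3 varied most among the 8 genes that passed the filter, with 45.2%. Levels between genes rest on the transcript lengths used, and the annotation gives HIF1A 2859 exon bases with 2475 of them coding and EPAS1 2854 with 2613, against 8782 with 1050 for HIF1AN.

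**Figure D1:**
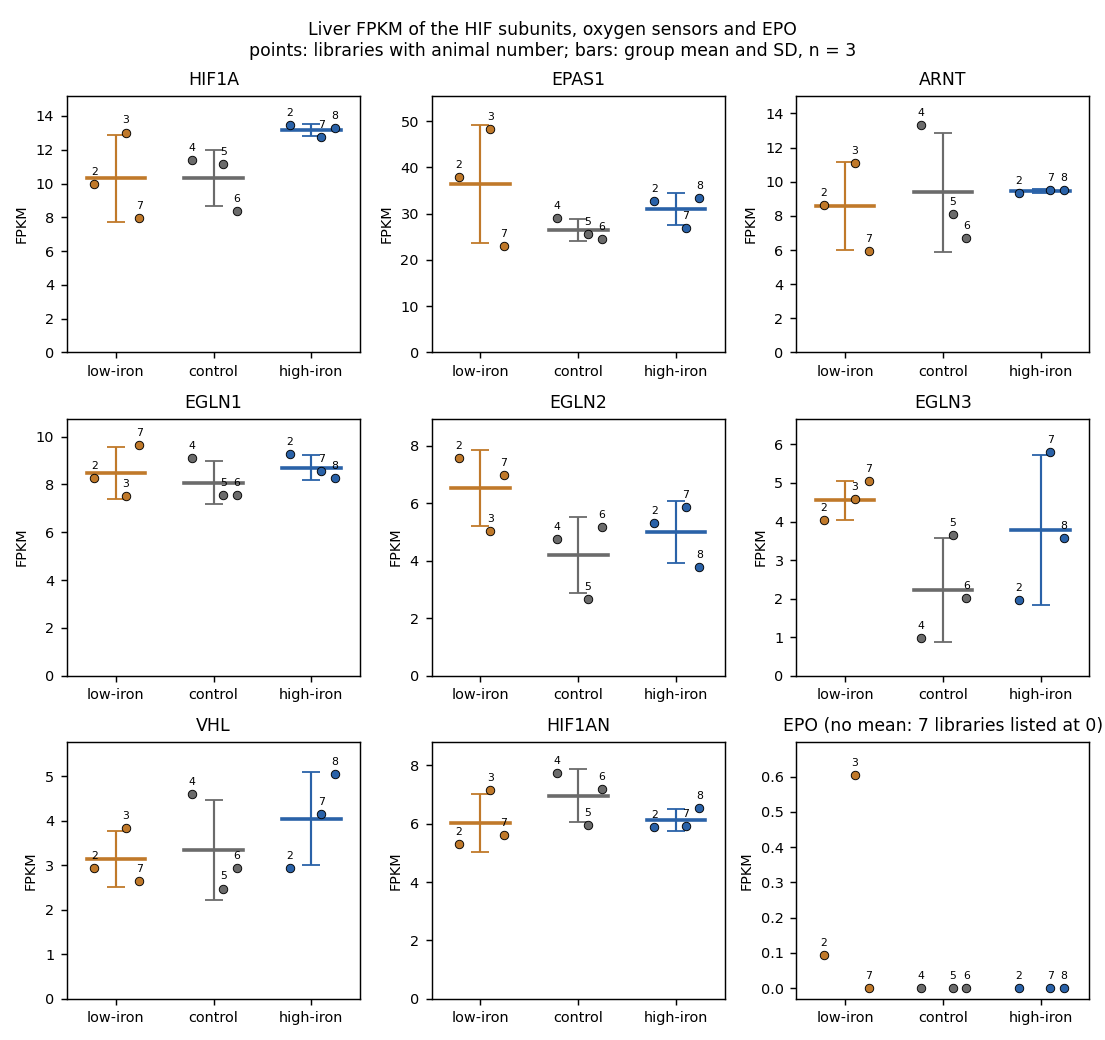
FPKM of each gene (vertical axes) by diet group (horizontal axes). Points are libraries with their animal number, and bars, left out for EPO, are the group mean and SD over 3 libraries. EGLN3 shows the low-iron points, 4.03 to 5.04, above the 3 control points, HIF1A the high-iron points, 12.7 to 13.5, above the control points, and EPO points above 0 in 2 low-iron libraries.

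The positions of the genes in Sscrofa11.1 are HIF1A at chr1:190625436-190673926, EPAS1 at chr3:94167759-94253662, ARNT at chr4:98333431-98390012, EGLN1 at chr14:59113527-59168421, EGLN2 at chr6:49002266-49010042, EGLN3 at chr7:65805513-65833536, VHL at chr13:66334535-66342401, HIF1AN at chr14:111636317-111654659 and EPO at chr3:8620508-8622936. EPAS1 is on the minus strand and the others are on the plus strand. All 1830 exon bases annotated for EGLN2 are also annotated for RAB4B and MIA, neighbours on the same strand, so the split of reads among these genes is uncertain. ARNT shares 554 of 4568 exon bases (12.1%) with CTSK on the same strand, and EPAS1 shares 14 bases with a lncRNA on the other strand. The library kit does not mark strand, so reads of EPAS1 and that lncRNA cannot be told apart over those bases.

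Fold changes were taken on the log2(FPKM + 0.1) scale with limma. A gene was called at a fold change of at least 2 with an unadjusted p-value under 0.05, the thresholds of the study. Between the low-iron and control groups 0.882% of the 12584 tested genes were called, between the high-iron and control groups 1.57%, and between the high-iron and low-iron groups 1.54%. Groups without overlap were found at 8.34%, 10.9% and 13.2% of tested genes in these comparisons. After Benjamini-Hochberg adjustment of the limma p-values, 0, 1 and 0 genes stayed under 0.05, against 463, 704 and 900 at an unadjusted p under 0.05. Of the 8 tested HIF genes, 1 was called in the low-iron against control comparison, EGLN3, and none in the other comparisons, and no HIF gene had an adjusted p-value under 0.05. Bulk RNA is measured, so fewer cells of a type and less RNA per cell cannot be told apart.

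Values are given in the order of animals 2, 3 and 7 for low iron, 4, 5 and 6 for control, and 2, 7 and 8 for high iron. HIF1A, the HIF-1α gene, had 9.96, 13.0 and 7.93 FPKM in the low-iron libraries, 11.4, 11.2 and 8.40 in the controls, and 13.5, 12.7 and 13.3 in the high-iron libraries. The low-iron and control values overlapped and had nearly equal means, 10.3 ± 2.56 and 10.3 ± 1.66 FPKM (SD, n = 3), while each high-iron value was above each control value. The high-iron libraries were close together, with 13.2 ± 0.374 FPKM (SD, n = 3). The log2 fold change was -0.02 (SE 0.21, 95% interval -0.49 to 0.45) for low iron and 0.36 (SE 0.21, 95% interval -0.11 to 0.83) for high iron, each against control. Neither passed the test (limma unadjusted p = 0.940 and 0.117, adjusted p = 0.9998 and 0.932). The high-iron values no longer lay above all control values after median-of-ratios scaling, which gave 11.0, 12.3 and 8.85 in the controls and 13.9, 11.6 and 12.2 in the high-iron group, or after quantile normalization, and the direction stayed upward under both. The exact permutation test over the 1680 assignments of the libraries to 3 groups gave p = 0.182.

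EPAS1, the HIF-2α gene, had 38.0, 48.3 and 23.0 FPKM in the low-iron libraries, 29.1, 25.6 and 24.6 in the controls and 32.7, 27.0 and 33.4 in the high-iron libraries. Low-iron replicates 2 and 3 stood above all controls and low-iron replicate 7 below them, so the groups overlapped. The means were 36.5 ± 12.7, 26.4 ± 2.36 and 31.0 ± 3.49 FPKM (SD, n = 3). The log2 fold change of low iron against control was 0.40 (SE 0.25, 95% interval -0.15 to 0.96), which did not pass the test (limma unadjusted p = 0.139, adjusted p = 0.9998). That of high iron against control was 0.23 (SE 0.25, 95% interval -0.33 to 0.78). The exact permutation test over the 3 groups gave p = 0.393. The size turned on single low-iron libraries, with a log2 fold change against control of 0.17 (limma unadjusted p = 0.499) without low-iron replicate 3 and of 0.70 (limma unadjusted p = 0.00646) without low-iron replicate 7.

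ARNT, the partner of both alpha subunits, had 8.65, 11.1 and 5.94 FPKM in the low-iron libraries, 13.3, 8.10 and 6.72 in the controls and 9.34, 9.53 and 9.54 in the high-iron libraries. The groups overlapped throughout, and the high-iron libraries fell inside the range of the controls. The log2 fold changes against control were -0.11 (SE 0.28, 95% interval -0.74 to 0.51) for low iron and 0.07 (SE 0.28, 95% interval -0.55 to 0.70) for high iron. The latter turned downward under median-of-ratios scaling and quantile normalization. In the low-iron group HIF1A, EPAS1, ARNT and also VHL stood in the same order of animals, with replicate 3 the highest and replicate 7 the lowest.

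Within a library the ratio of the alpha subunits does not depend on scaling between libraries. The ratio of EPAS1 to HIF1A was 3.82, 3.71 and 2.90 in the low-iron libraries, 2.56, 2.29 and 2.93 in the controls and 2.43, 2.12 and 2.51 in the high-iron libraries. All low-iron values were above all high-iron values, and low-iron replicate 7 lay within the range of the controls. On the log2 scale of HIF1A over EPAS1 the means were -1.79 ± 0.22, -1.37 ± 0.18 and -1.23 ± 0.13 (SD, n = 3). The exact permutation test over the 3 groups gave p = 0.0321, unadjusted, for 1 of 3 ratios and shares compared. For pairs of groups the exact permutation p was 0.1 for high iron against low iron, which is the smallest p that 3 against 3 libraries can give, 0.2 for low iron against control and 0.4 for high iron against control. The p over the 3 groups lay between 0.0643 and 0.0964 when any one of 7 of the 9 libraries was left out, low-iron replicate 7 and control replicate 5 being the others, above 0.05.

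The ratio of the summed alpha subunits to ARNT, on the log2 scale, was 2.47, 2.47 and 2.38 in the low-iron libraries, 1.60, 2.18 and 2.29 in the controls and 2.31, 2.06 and 2.29 in the high-iron libraries. The low-iron values lay above all others. The exact permutation test over the 3 groups gave p = 0.15, and each pair with the low-iron group reached the smallest possible exact permutation p of 0.1. Control replicate 4, with the highest ARNT level of the series, had the lowest ratio.

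**Figure D2:**
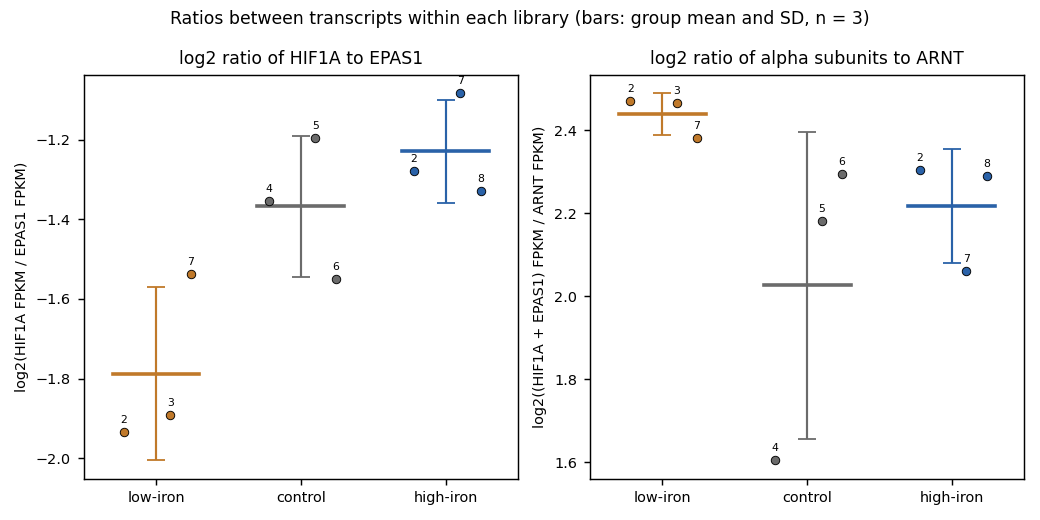
Log2 ratios of FPKM within each library (vertical axes) by group (horizontal axes), with HIF1A over EPAS1 on the left and the summed alpha subunits over ARNT on the right. Points are libraries with their animal number, and bars are the mean and SD of 3 libraries. On the left the low-iron values, -1.93 to -1.54, lie below the high-iron values, -1.33 to -1.08, and on the right the low-iron values, 2.38 to 2.47, lie above all others.

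The prolyl hydroxylases differed among themselves. EGLN1, which encodes PHD2, the main oxygen sensor in most cells, had 8.27, 7.50 and 9.65 FPKM in the low-iron libraries, 9.11, 7.57 and 7.54 in the controls and 9.28, 8.55 and 8.27 in the high-iron libraries. The groups overlapped in each comparison and the means, 8.47 ± 1.09, 8.07 ± 0.895 and 8.70 ± 0.522 FPKM (SD, n = 3), were within the spread of each other. The log2 fold changes against control were 0.07 (SE 0.17, 95% interval -0.32 to 0.45) for low iron and 0.11 (SE 0.17, 95% interval -0.28 to 0.50) for high iron. These are the narrowest intervals among the 8 genes, and both directions turned under median-of-ratios scaling.

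EGLN2, which encodes PHD1, had 7.59, 5.03 and 6.97 FPKM in the low-iron libraries, 4.75, 2.68 and 5.16 in the controls and 5.30, 5.88 and 3.79 in the high-iron libraries. Low-iron replicates 2 and 7 were above all controls, and low-iron replicate 3 was within their range. The log2 fold change of low iron against control was 0.66 (SE 0.29, 95% interval 0.02 to 1.29), short of a fold change of 2 (limma unadjusted p = 0.0431, adjusted p = 0.9998), in a comparison where 3.68% of genes had an unadjusted p under 0.05. The interval included 0 under median-of-ratios scaling (-0.05 to 1.21) and quantile normalization, and the value fell to 0.37 (limma unadjusted p = 0.185) without control replicate 5. The exact permutation test gave p = 0.2 for this pair. RAB4B, whose annotation covers the EGLN2 exons, had 0.972 FPKM in low-iron replicate 2, where EGLN2 was highest, and 3.26 to 5.23 in the other 8 libraries. MIA, whose annotation covers them too, had 1.32 FPKM in low-iron replicate 2 and 0 to 0.514 in the other 8. The part of read assignment in the EGLN2 values was not tested.

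EGLN3, which encodes PHD3, itself a well known HIF target, had 4.03, 4.59 and 5.04 FPKM in the low-iron libraries, 0.978, 3.65 and 2.02 in the controls and 1.95, 5.81 and 3.58 in the high-iron libraries. The low-iron values lay above all control values, also under median-of-ratios scaling and quantile normalization, and the high-iron values spread across both groups. The means were 4.55 ± 0.507, 2.22 ± 1.35 and 3.78 ± 1.94 FPKM (SD, n = 3). EGLN3 rose by a log2 fold change of 1.18 (SE 0.46, 95% interval 0.17 to 2.19) in low iron against control, past both thresholds (limma unadjusted p = 0.0266, adjusted p = 0.9998). For high iron against control the value was 0.79 (SE 0.46, 95% interval -0.22 to 1.81), which did not pass the test, and for high iron against low iron it was -0.39 (SE 0.46, 95% interval -1.40 to 0.63). The exact permutation p for low iron against control was 0.1, the smallest possible. The call was lost without control replicate 4, which had the lowest level (log2 fold change 0.72, limma unadjusted p = 0.120), and without low-iron replicate 3, low-iron replicate 7 or control replicate 6, with unadjusted limma p-values of 0.0561, 0.0674 and 0.0515.

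**Figure D3:**
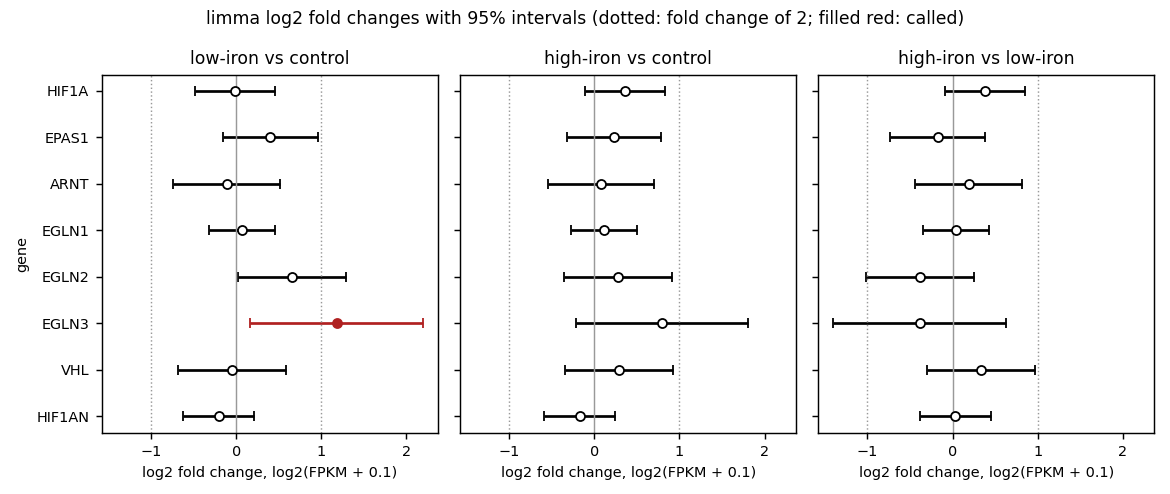
Log2 fold changes of the 8 tested genes (horizontal axes, with zero and fold changes of 2 marked by lines) with 95% intervals from limma, in a panel for each comparison. EGLN3 at 1.18 in low iron against control is the called value, drawn in red, and EGLN2 has the next largest value in that panel, 0.66.

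Summed over the 3 prolyl hydroxylases, the level was 19.9, 17.1 and 21.7 FPKM in the low-iron libraries, 14.8, 13.9 and 14.7 in the controls and 16.5, 20.2 and 15.6 in the high-iron libraries. The low-iron values lay above all 3 controls, also under median-of-ratios scaling and quantile normalization, a description of a sum looked at after its parts were seen. The high-iron values lay above the controls on the deposited scale but not under those scalings, where high-iron replicate 8 had 14.3 FPKM in the first and the controls 14.4 to 15.5. EGLN1 made up 41.6%, 43.8% and 44.5% of this sum in the low-iron libraries, 61.4%, 54.5% and 51.2% in the controls and 56.1%, 42.2% and 52.9% in the high-iron libraries, which spread across both. The share of EGLN3 was 20.2%, 26.8% and 23.3% in low iron, 6.59%, 26.3% and 13.7% in the controls and 11.8%, 28.7% and 22.9% in high iron. It overlapped between all groups (exact permutation p = 0.525 over the 3 groups).

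**Figure D4:**
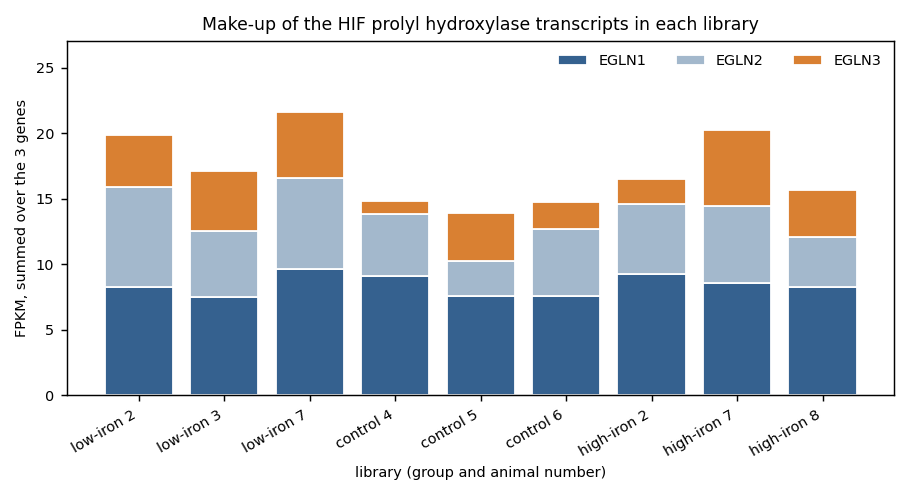
FPKM of EGLN1, EGLN2 and EGLN3 stacked for each library (vertical axis, from 0; horizontal axis, group and animal number). On this deposited scale the 3 control libraries have the lowest sums, 13.9 to 14.8 FPKM, while under median-of-ratios scaling high-iron replicate 8 is lowest, at 14.3, and the EGLN3 part is smallest in control replicate 4, at 6.59% of its sum.

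HIF1AN, which encodes FIH, had 5.30, 7.16 and 5.61 FPKM in the low-iron libraries, 7.73, 5.96 and 7.18 in the controls and 5.88, 5.94 and 6.55 in the high-iron libraries. The groups overlapped on the deposited scale. The log2 fold changes against control were -0.21 (SE 0.19, 95% interval -0.63 to 0.21) for low iron and -0.17 (SE 0.19, 95% interval -0.59 to 0.24) for high iron. After median-of-ratios scaling or quantile normalization the high-iron values lay below all controls, at 5.42 to 6.08 against 6.59 to 7.57 in the first of these. The share of all genes without overlap, 10.9% in this comparison on the deposited scale, was not counted under those scalings.

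VHL, the recognition subunit of the ubiquitin ligase for hydroxylated alpha subunits, had 2.95, 3.84 and 2.65 FPKM in the low-iron libraries, 4.61, 2.48 and 2.93 in the controls and 2.95, 4.16 and 5.05 in the high-iron libraries. The groups overlapped in each comparison. The log2 fold changes against control were -0.05 (SE 0.29, 95% interval -0.69 to 0.58) for low iron and 0.29 (SE 0.29, 95% interval -0.35 to 0.92) for high iron.

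Over the 3 groups, the exact permutation test gave p = 0.850 for ARNT, 0.636 for EGLN1, 0.2 for EGLN2, 0.157 for EGLN3, 0.346 for HIF1AN and 0.475 for VHL. Set against low iron, high iron gave log2 fold changes of the 8 genes between -0.39 for EGLN3 and 0.38 for HIF1A (SE 0.21, 95% interval -0.09 to 0.85, limma unadjusted p = 0.103, adjusted p = 0.764). In that comparison EGLN2 had -0.38, EPAS1 -0.17, HIF1AN 0.03, EGLN1 0.04, ARNT 0.19 and VHL 0.34, and the groups overlapped for each gene.

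EPO was listed at 0 in all 3 control and all 3 high-iron libraries and in low-iron replicate 7. It had 0.0929 FPKM in low-iron replicate 2 and 0.604 in low-iron replicate 3. The latter is the library with the highest EPAS1 level, and the former the one with the next highest. The values are near the bottom of the scale and rest on an unknown number of reads, and no fold change is given against groups listed at 0. The exact permutation test gave p = 0.25 over the 3 groups and p = 0.4 for low iron against control.

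Read together against the whole table, 4 of the 8 tested HIF genes were higher and 4 lower in low iron than in control, with a median log2 fold change of 0.03, where 62.7% of all tested genes were higher with a median of 0.08. In high iron against control 7 were higher and 1 lower, with a median of 0.25 against 0.10 for all genes, of which 65.0% were higher. Between high and low iron, 5 were higher and 3 lower in high iron, with a median of 0.04 against 0.03. Median-of-ratios scaling moved the high-iron against control median of all genes from 0.10 to -0.03 and that of the HIF genes from 0.25 to 0.12, with 5 higher and 3 lower. It left 3 of 8 higher in each of the other comparisons. On the deposited scale HIF1A was the one HIF gene whose high-iron values all lay above the control values, 1 of 9. Of all tested genes, 10.9% had groups without overlap in that comparison. EGLN3 was the one in low iron against control, where that share was 8.34%. No HIF gene had groups without overlap in high iron against low iron, where the share was 13.2%. Under median-of-ratios scaling and quantile normalization HIF1A overlapped in high iron against control and HIF1AN lay below control, while EGLN3 in low iron stayed above. The share over all genes was not counted under those scalings.

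Markers of other liver cells moved with the high-iron group and are given beside the HIF1A values. The summed FPKM of 10 endothelial markers was 131, 161 and 116 in the low-iron libraries, 121, 118 and 122 in the controls and 164, 159 and 164 in the high-iron libraries, and 10 of 10 were higher in high iron than in control, with none called. The 8 Kupffer cell markers summed to 641 to 786, 538 to 757 and 832 to 1060, with 8 of 8 higher in high iron than in control, 7 of 8 under either other scaling, and none called. The 8 stellate cell and fibroblast markers summed to 122 to 302, 114 to 198 and 200 to 292. Of these, 7 of 8 were higher in high iron than in control, also under either other scaling, and LRAT had -0.18. COL1A1 and RGS5 were called higher in that comparison, 2 of 8 where 1.57% of all genes were called. COL1A1 had 51.3, 30.6 and 107.5 FPKM in the high-iron libraries and 22.3, 15.4 and 20.4 in the controls. Under median-of-ratios scaling the Kupffer and stellate sums of these groups overlapped. Control replicate 6 had 797.6 and 208.3, against 761.5 in high-iron replicate 8 for Kupffer and 182.1 in high-iron replicate 7 for stellate markers. The endothelial sums stayed apart, at 117.1 to 130.7 in the controls and 145.0 to 169.9 in high iron. Low-iron replicate 3, with the highest HIF1A and EPAS1 levels of its group, also had the highest sums of endothelial, stellate and Kupffer markers in that group. The part of these cells in the HIF1A and EPAS1 values was not tested. Hepatocyte markers summed to 65710 to 90020 in all libraries, most of it from ALB, the albumin gene, with overlap between all groups. Of these 8 markers, 3 were higher in high iron than in control, 1 under median-of-ratios scaling and 5 under quantile normalization. CPS1 had a log2 fold change of -0.88 in that comparison (limma unadjusted p = 0.00416, adjusted p = 0.885). It was called lower under median-of-ratios scaling, at -1.01. Erythroid markers summed to 1426, 477 and 2449 in low iron, 212, 678 and 1446 in control and 839, 533 and 351 in high iron. Most of this came from HBB, the beta-globin gene. The 3 tested erythroid markers, HBB, ALAS2 and HEMGN, were all higher in low iron than in control, with a median log2 fold change of 1.00, and all lower in high than in low iron, with a median of -1.14, and none was called. KLF1, a defining factor, was listed at 0 in each library. Low-iron replicate 3, with the highest EPO value, had the lowest erythroid sum of its group, and low-iron replicate 7, with the highest, had EPO at 0. Control replicate 6 had a sum of 1446 with EGLN3 at 2.02 FPKM, and control replicate 4 the lowest sum and the lowest EGLN3. The part of blood cells in the EGLN3 and EPO values was not tested.

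The genes that act with the HIF proteins were followed as fixed lists, described by counts. Among HIF partners and coactivators, 6 of 8 passed the filter and none was called in any comparison. HIF3A and ARNT2, the relatives of the alpha subunits and of ARNT, were the genes under the filter, named after their values were seen, with at most 0.0969 and 0.150 FPKM in any library. All 6 tested partners were higher in high iron than in control, with a median log2 fold change of 0.19. Of all tested genes, 65.0% were higher in that comparison, with a median of 0.10. The partner count was 4 of 6 after median-of-ratios scaling and 5 of 6 after quantile normalization. In low iron 4 of 6 were higher than in control, and 1 of 6 under either of these scalings. The 4 tested subunits that complete the VHL ligase had medians of 0.01 and 0.10 in low and high iron against control, and none was called. None of the 12 tested regulators of HIF stability was called, with medians of 0.06 and 0.04. Median-of-ratios scaling turned the medians of both lists negative, to -0.07 and -0.02 for the ligase and -0.03 and -0.08 for the regulators. Under quantile normalization they were -0.08 and 0.03 for the ligase and -0.01 and -0.008 for the regulators.

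Of 30 HIF target genes, 28 passed the filter, and 24 of these were higher in low iron than in control, with a median log2 fold change of 0.20, where 62.7% of all genes were higher. In high iron 21 of 28 were higher than in control, with a median of 0.27, where 65.0% of all genes were higher. The counts fell to 19 and 17 under median-of-ratios scaling and to 19 and 19 under quantile normalization, and both comparisons share the same controls. The medians of all genes in low and high iron were -0.003 and -0.03 under the first scaling and -0.007 and -0.008 under the second. The percentages above are thus not the background of these lower counts. PFKFB3, a kinase that raises glycolytic flux, was the called target, 1 of 28 in each comparison, where 0.882% and 1.57% of all genes were called. It had 1.34, 1.79 and 1.14 FPKM in the low-iron libraries, 0.530, 0.559 and 0.379 in the controls and 1.04, 1.91 and 1.14 in the high-iron libraries. All values of both groups lay above the controls. PFKFB3 rose by 1.36 (SE 0.34) in low iron and by 1.28 (SE 0.34) in high iron on the log2 scale (limma unadjusted p = 0.00237 and 0.00360, adjusted p = 0.9998 and 0.885). Between high and low iron, 11 of 28 targets were higher in high iron, with a median of -0.04 and none called.

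**Figure D5:**
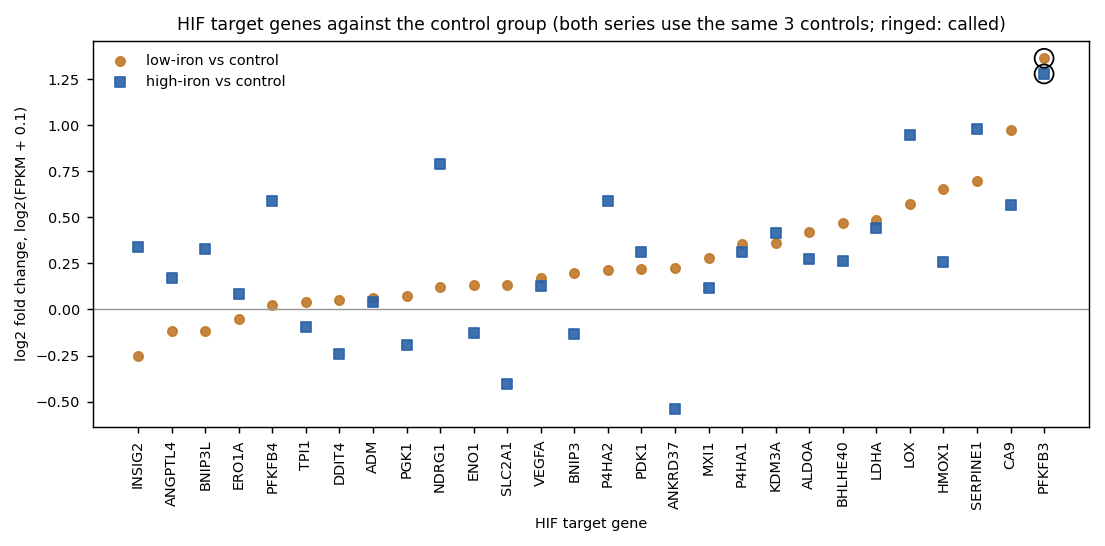
Log2 fold changes on the log2(FPKM + 0.1) scale (vertical axis) of the 28 tested HIF target genes (horizontal axis, sorted by the low-iron value), with low iron against control as circles and high iron against control as squares. Both use the same 3 control libraries, 24 circles and 21 squares lie above 0, and the rings mark PFKFB3, at 1.36 and 1.28.

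Downstream of EPO, none of the 10 genes of the EPO receptor pathway was called on the deposited scale. SH2B3, an adaptor that restrains JAK2, had 4.19, 4.97 and 4.24 FPKM in the low-iron libraries, 5.32, 3.85 and 4.30 in the controls and 7.10, 6.76 and 7.26 in the high-iron libraries. The high-iron values lay above all others, with a log2 fold change of 0.65 (SE 0.18) against control, under a fold change of 2 (limma unadjusted p = 0.00522, adjusted p = 0.885). SOCS3, a feedback inhibitor of cytokine signalling, had a log2 fold change of -0.99 (SE 0.40) in high iron against control (limma unadjusted p = 0.0311, adjusted p = 0.892). It was called lower under median-of-ratios scaling and quantile normalization, at -1.12 and -1.09. EPOR, the receptor of EPO, falls outside the naming rule and was picked after its values were seen. It had 1.08, 0.525 and 1.15 FPKM in the low-iron libraries, 0.740, 0.756 and 0.627 in the controls and 1.30, 1.33 and 1.33 in the high-iron libraries. The high-iron values were above all others, with a log2 fold change of 0.82 (SE 0.34) against control that stayed under a fold change of 2 (limma unadjusted p = 0.0366, adjusted p = 0.892). For SH2B3 and EPOR alike, 10.9% of tested genes had groups without overlap in high iron against control, and 13.2% against low iron.

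Upstream of EPO, 5 of 8 regulators passed the filter and none was called. HNF4A, a hepatocyte factor that binds the EPO enhancer, had a log2 fold change of -0.53 in high iron against low iron (limma unadjusted p = 0.0468, adjusted p = 0.697), and NR2F2, which can compete for that site, one of 0.44 in high iron against control (limma unadjusted p = 0.0477, adjusted p = 0.892). The iron regulatory proteins, which bind iron-responsive elements, were ACO1 and IREB2. Their log2 fold changes in low and high iron against control were 0.12 and -0.15 for ACO1 and 0.09 and -0.13 for IREB2, with neither called, and IREB2 in low iron turned downward under quantile normalization, at -0.02.

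The genes most like each HIF gene over the 9 libraries were ranked by Pearson's r on the log2(FPKM + 0.1) scale among 11116 tested genes with a symbol, as a description in which all points share the same libraries. TMOD3 (r = 0.962), FRMD4B (0.961) and EIF2AK2 (0.958) were nearest to HIF1A, and APLF (0.924), SRP54 (0.918) and ATF6 (0.906) to EPAS1. KAT6B (0.952), KIAA0754 (0.948) and PPP4R3B (0.947) were nearest to ARNT. EGLN1 was most like EPS8L1 (0.960), RPAP2 (0.926) and C9H11orf52 (0.919), EGLN2 like CLK3 (0.974), GRAMD4 (0.960) and ZNF697 (0.934), and EGLN3 like MVK (0.961), ECHS1 (0.959) and STARD7 (0.914). For VHL they were FAM193A (0.950), PREX1 (0.948) and AKAP3 (0.948), and for HIF1AN PIGZ (0.925), SLPI (0.881) and FBXO24 (0.872).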

How the data were processed

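Liver RNA of 9 Wujin pigs was sequenced from poly(A)-selected, unstranded libraries. Per the submitters' processing notes and the study's methods, HISAT2 aligned the reads (build Sscrofa11.1) and StringTie put together the transcripts. The authors deposited FPKM per gene and library. The study reports the mapped reads of each library. No counts per gene came with the FPKM, so the number of reads behind a single value is not given and no count model was run. FPKM sums lay between 416922 and 456420 per library, and median-of-ratios factors between 0.904 and 1.10. Gene numbers were read as serial numbers of genes in the NCBI annotation release for that build: 20660 of 20660 numbered genes fell on protein-coding genes, against 15031 with the numbering shifted by 1.

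Groups follow the submitters' design text, and diets and ages the study's methods. Values were analysed as log2(FPKM + 0.1) for 12584 genes with a mean of 0.5 FPKM or more, in R 4.3.3 with limma 3.58.1 (3-group fit, empirical Bayes with trend, Benjamini-Hochberg adjustment over all tested genes), tested on simulated data. Alternatives were other pseudocounts, filters, scalings, a block for the animal number, array quality weights, a fit of the compared groups alone and leaving out each library. Single values were compared with two-sided exact permutation tests in Python 3.11.15. Median-of-ratios scaling and quantile normalization of the lists, the direction counts and the summed EGLN level were added after the data were seen. The 9 genes and the lists were chosen with earlier results of these data known. Named list genes are those called, or else at most 2 per list with the smallest limma p; the likeness rule takes the 3 highest r per gene.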

Additional observations from a re-analysis of the deposited data

How the results depend on the processing

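The values rest on 3 pigs per group and on FPKM without counts per gene, and a fold change under 2 is not called by construction. No fold change of EPO is given, and the reads behind its values are not known. The call of EGLN3 in low iron against control held under 0.01 as pseudocount, other filters, TPM, other scalings, array quality weights and the fit of only the groups compared. It also held with the animal number as a replicate block, at a log2 fold change of 1.18 (limma unadjusted p = 0.0252), where 110, 207 and 228 of all genes were called in low iron against control, high iron against control and high iron against low iron. The numbers belong to different pigs. Deviations of the same-numbered libraries had correlations of 0.0183 and 0.0213, and the fitted correlation within a number was 0.201.

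With a pseudocount of 1, EGLN3 had 0.87 and 0 HIF genes were called in low iron against control, and all genes called were 34, 74 and 67 in these comparisons. Without the filter they were 331, 504 and 458, and with array quality weights 171 in low iron against control and 334 in high iron against low iron. Those weights also called 1 HIF gene in high iron against control, EGLN3 at 1.22, as did leaving out control replicate 5 (1.23) or high-iron replicate 2 (1.19). The split of higher to lower calls in high iron against control was 160 to 37, 96 to 57 under median-of-ratios scaling and 82 to 59 under quantile normalization. In low iron against control it was 75 to 36, 53 to 47 and 52 to 58, and in high iron against low iron 127 to 67, 105 to 80 and 91 to 92. The cause of these shifts was not tested.

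Small log2 fold changes changed sign. In low iron against control EGLN1 went to -0.014 under median-of-ratios scaling and -0.027 under quantile normalization. For high iron against control ARNT went to -0.053, -0.028 and, with weights, -0.092, and EGLN1 to -0.017 under median-of-ratios scaling. For high iron against low iron EGLN1 went to -0.0035 under median-of-ratios scaling and -0.0037 with weights, and HIF1AN to -0.013 and -0.0014 under the respective scalings.

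Leaving out each library in turn gave 0 to 1 HIF genes called in low iron against control and 0 to 1 in high iron against control, and 111 to 209, 190 to 296 and 186 to 333 of all genes called. The exact permutation p of the HIF1A to EPAS1 ratio ranged from 0.0143 to 0.0964. The log2 fold changes in low iron against control ranged from -0.20 to 0.16 for HIF1A, -0.32 to 0.17 for ARNT, -0.029 to 0.16 for EGLN1, -0.24 to 0.20 for VHL and 0.72 to 1.62 for EGLN3. For high iron against control they ranged from -0.13 to 0.36 for ARNT, 0.33 to 1.23 for EGLN3 and -0.013 to 0.46 for EGLN2. For high iron against low iron they ranged from -0.47 to 0.060 for EPAS1, -0.049 to 0.40 for ARNT, -0.040 to 0.14 for EGLN1, -0.76 to 0.0087 for EGLN3 and -0.050 to 0.16 for HIF1AN. Of 24 log2 fold changes, 12 never changed sign.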
